A study of Mus musculus with 30 samples.

Results

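The gene Trp53 encodes the transcription factor p53, and its mRNA was followed here together with the mRNAs of 6 of its targets, Cdkn1a, Mdm2, Ppm1d, Ccng1, Trp53inp1 and Perp. The members are the 13 probes whose gene name on the array is one of these 7 symbols, out of 41174 probes that are not controls, of which 33453 carry a gene name and stand for 21689 genes. All 7 genes were found on the array. Total RNA of mouse embryonic fibroblasts (MEFs, connective tissue cells grown from mouse embryos) was compared on 30 2-colour Agilent arrays with a pool of 2 untreated wild type cultures, 2 arrays for each of 15 groups. Each value is the log2 of the treated signal (Cy5) over the pool signal (Cy3), so that 0 means equal to the pool and 1 means 2-fold higher.

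The 5 wild type stress groups received anisomycin, an inhibitor of protein synthesis, at 25 ng/ml for 45 min, the cytokine TNFα at 100 ng/ml for 45 min, or 100 mM NaCl (hyperosmotic stress) for 45 min, 2 h or 8 h. A further 5 wild type groups received the same stresses together with the p38 inhibitor SB203580, and a last wild type group received SB203580 alone. The 4 groups of p38α-/- MEFs, which lack the kinase encoded by Mapk14, were untreated or received anisomycin for 45 min, TNFα for 45 min or NaCl for 2 h, at the same doses. For SB203580 the protocol gives 10 μM added 30 min before the stress, whereas the sample titles give 10 mM and 2 h. All cells were immortalised MEFs, how they were immortalised and from how many embryos is not given in the sources used here, and whether p53 was functional in them was not tested.

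No array carried untreated wild type cells in Cy5 and the dyes were not swapped. A ratio against the pool therefore holds any offset between the dyes for that probe, which cannot be told apart from a change common to all groups, and leaves out the spread of the pool itself. Direct contrasts between groups cancel that offset and are given beside the ratios. The differences of response further below do not cancel it, because their wild type arm is set against the pool. The share of spots that the scanner software marked as outliers ran from 6.78% to 44.8% per array (median 16.0%), and these spots were left out of the main values. Mapk14 was measured on 6 of 8 arrays of p38α-/- MEFs, at -2.24 to -0.94, and on 16 of 22 wild type arrays, at 0.05 to 1.31, with no overlap. Whether its probes lie in the deleted exons is not given in the sources used here. All 12 fibroblast markers were well above background on every array, but so were 11 of 12 markers of other cell types, so that this flag does not tell cell types apart. The arrays were scanned on 4 days, with the first wild type arrays on the first day, the second wild type arrays and the first p38α-/- arrays on the second day, and the remaining p38α-/- arrays later.

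p53 is held at a low level in unstressed cells because Mdm2, a ubiquitin ligase, marks it for degradation, so that stress mostly raises the protein and not its mRNA. The stabilised protein binds DNA and raises the transcription of genes that stop the cell cycle, such as Cdkn1a (p21, an inhibitor of cyclin-dependent kinases), and of genes that switch the response off again, such as Mdm2 and Ppm1d (Wip1, a phosphatase that acts on p53 and on p38). Ccng1 encodes cyclin G1, which recruits a phosphatase to Mdm2, Trp53inp1 a nuclear protein that promotes phosphorylation of p53, and Perp a membrane protein of cell junctions linked to apoptosis. p38 itself can phosphorylate p53, which places these genes downstream of more than 1 branch of the stress response.

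The promoter sequences of Ppm1d and Cdkn1a are shown because these were the members called in wild type MEFs under stress. They are the 250 bases before the gene start in RefSeq (build GRCm38.p6, plus strand), Ppm1d at chr11:85311004-85311253 and the first start of Cdkn1a at chr17:29090729-29090978. Capitals mark the matches, on either strand, to the p53 decamer motif, to the cAMP response element TGACGTCA and to the CCAAT box.
Ppm1d: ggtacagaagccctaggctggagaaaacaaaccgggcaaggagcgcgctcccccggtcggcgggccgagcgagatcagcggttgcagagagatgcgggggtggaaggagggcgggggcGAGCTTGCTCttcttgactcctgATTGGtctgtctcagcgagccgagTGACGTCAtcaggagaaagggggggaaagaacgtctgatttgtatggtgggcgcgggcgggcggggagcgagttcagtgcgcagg
Cdkn1a: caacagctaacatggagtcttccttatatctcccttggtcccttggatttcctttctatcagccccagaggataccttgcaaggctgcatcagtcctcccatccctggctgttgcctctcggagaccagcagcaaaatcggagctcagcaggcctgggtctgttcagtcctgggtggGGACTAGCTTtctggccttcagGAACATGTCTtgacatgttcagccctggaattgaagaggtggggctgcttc
The Ppm1d window held a p53 decamer from base -132 to -123, a CCAAT box on the minus strand from -109 to -105 and a cAMP response element from -85 to -78 before the start. The first Cdkn1a window held p53 decamers from -73 to -64 and from -51 to -42, and the window of its second start held none. Matches of the p53 decamer were also found for Mdm2 (-186 to -177), Ccng1 (-185 to -176) and Trp53 (-75 to -66), and no promoter was listed for Trp53inp1 and Perp. Of the windows of 32851 starts, 7.13% held the p53 decamer, 1.55% the cAMP response element and 33.8% the CCAAT box. Neither printed window matched TGANTCA (an AP-1 element, in 6.75% of all windows) or the core TGGAAA of the tonicity element (in 18.6%). These matches describe the letters in the windows and do not show binding.

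Every probe of the members was above background in both dyes on all 30 arrays and none was saturated, but outlier spots removed many values. Trp53 kept 8 and 12 arrays on its 2 probes, Perp 19 on its only probe and Cdkn1a 29 on its only probe. Mdm2 kept 20 and 30, Ccng1 12 and 30, Trp53inp1 11 and 26, and the 3 Ppm1d probes 28, 30 and 28. A gene's value is the mean of the probes left on that array, so the probes behind it differ between arrays, and each probe is given below wherever the probes of a gene disagreed.

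Against the pool, 79 member values could be tested in the 15 groups with limma, which fitted all groups together, and 10 were called higher and 4 lower at a Benjamini-Hochberg adjusted p under 0.05, with 24 at an unadjusted p under 0.05. Over all genes, 36590 of 248502 such tests were called in the same groups, a share near that of the members. In wild type MEFs Ppm1d, the phosphatase, was the member called higher, with NaCl at 2 h and 8 h, and Cdkn1a was called lower with NaCl at 8 h. In p38α-/- MEFs Ccng1 was called higher in all 4 groups, Perp lower in the 3 groups where it could be tested, and Ppm1d higher with anisomycin and NaCl. In these bulk cultures, fewer expressing cells and less RNA per cell cannot be told apart.

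**Figure D1:**
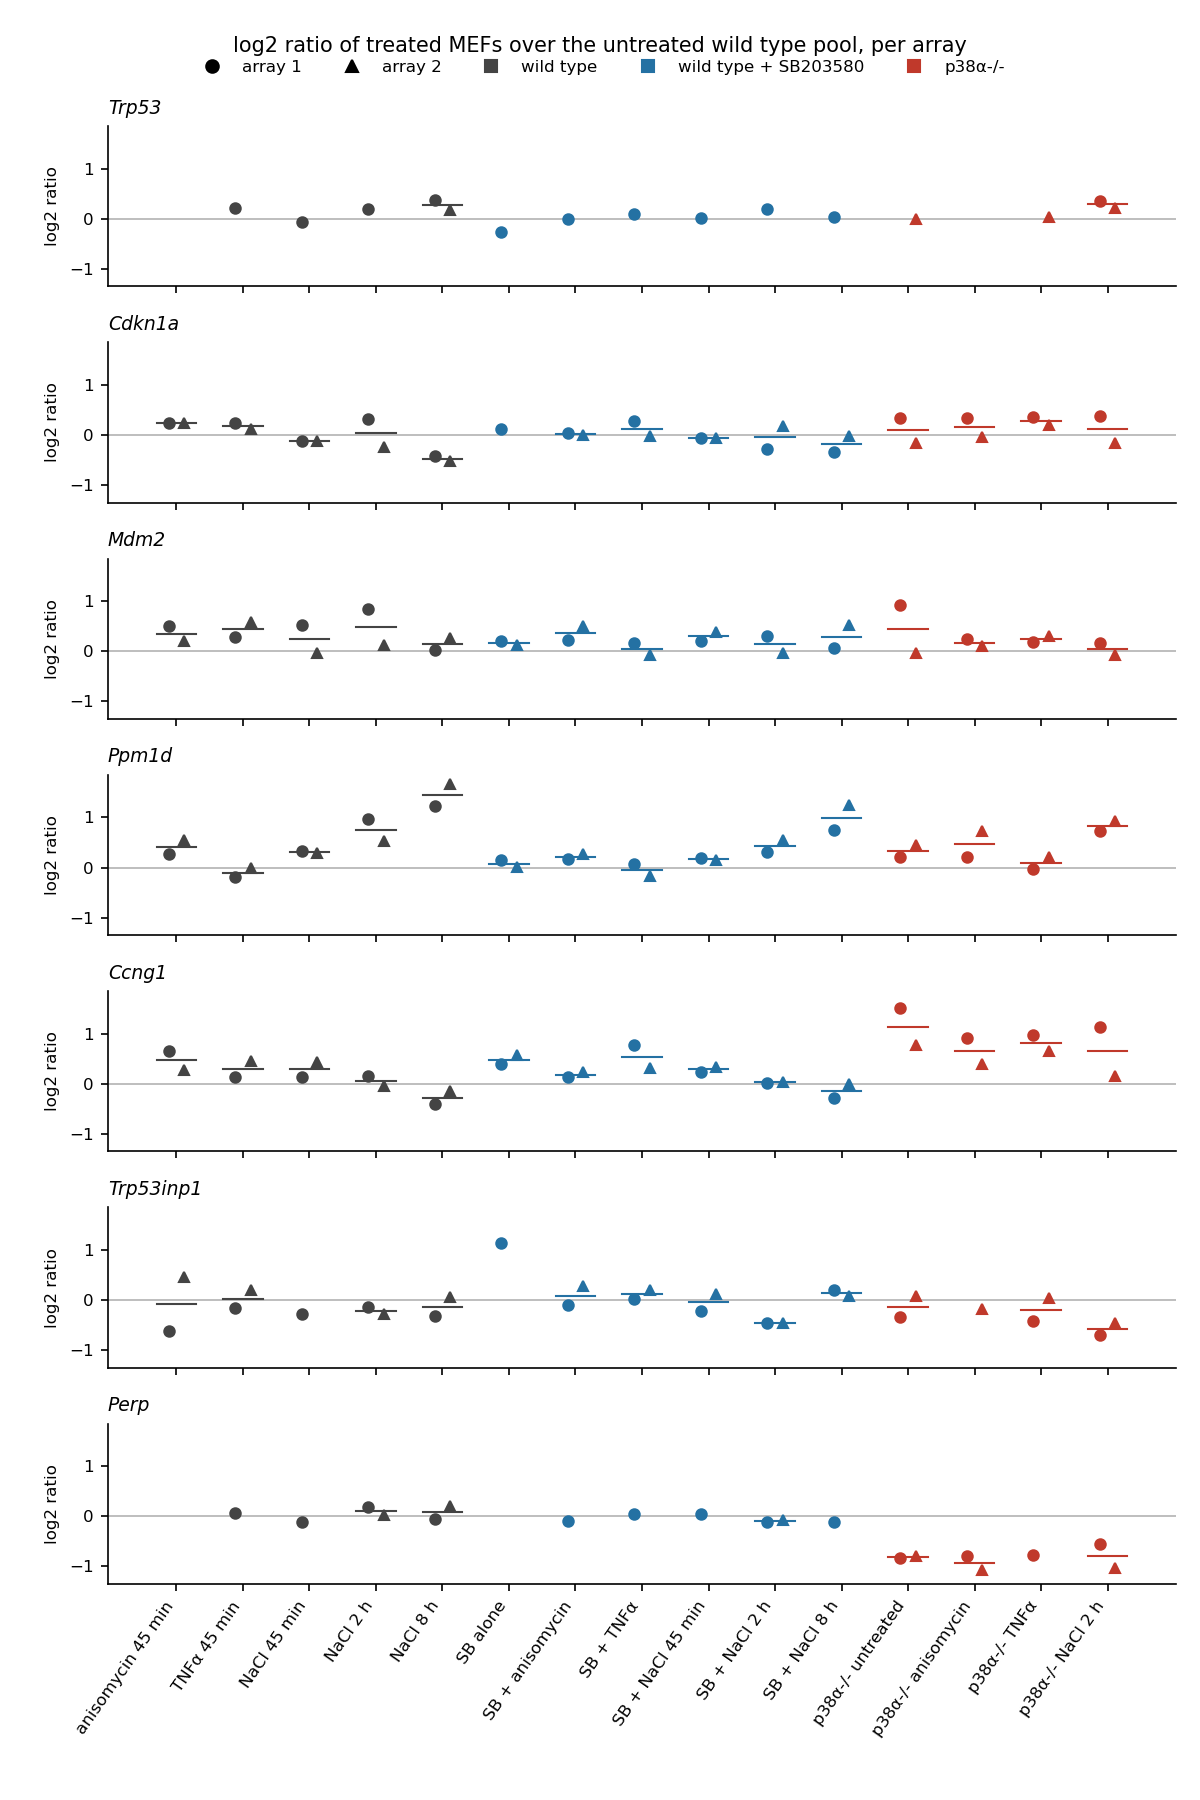
Log2 ratio over the untreated wild type pool (y axis) of the 7 genes on each array (circles array 1, triangles array 2, bar the mean where both arrays were used), by group (x axis), in wild type MEFs without (grey) or with SB203580 (blue) and in p38α-/- MEFs (red). Ppm1d was highest with NaCl at 8 h (1.23 and 1.66), and Perp was under -0.5 in p38α-/- MEFs and near 0 in wild type MEFs.

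The share of all genes called in each group is the background for the members' counts. With anisomycin, none of 5 members tested was called by limma (2 at an unadjusted p under 0.05), where 12.0% of all genes tested were. With TNFα it was none of 5 (1 unadjusted) against 11.0%, and with NaCl for 45 min none of 4 (none unadjusted) against 9.88%. With NaCl for 2 h, 1 of 6 was called against 9.92%, and for 8 h 2 of 7 against 22.2%. SB203580 alone called none of 3 (1 unadjusted) against 26.6% of all genes. Of the groups with SB203580, anisomycin called none of 5 (none unadjusted, 11.7% of all genes), TNFα none of 5 (1 unadjusted, 9.52%) and NaCl for 45 min none of 5 (none unadjusted, 16.8%). NaCl with SB203580 called 1 of 6 at 2 h (17.1%) and 1 of 5 at 8 h (21.2%). The p38α-/- MEFs called 2 of 6 untreated (15%), 3 of 5 with anisomycin (12.4%), 1 of 5 with TNFα (7.61%) and 3 of 7 with NaCl (18.0%).

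Trp53 mRNA stayed near the level of the pool. Both of its probes lie on the RefSeq transcript, and over all 30 arrays, outlier spots included, they ran from -0.32 to 0.47 (A_52_P491849) and from -0.36 to 0.52 (A_52_P781398), with a Pearson r of 0.81 between them. Since all arrays share the pool and each array's probes share a hybridisation, this r is a description. The gene could be tested in 2 groups only. With NaCl for 8 h its arrays gave 0.38 and 0.18, with a mean of 0.28 (limma, adjusted p = 0.164), and in p38α-/- MEFs with NaCl for 2 h they gave 0.35 and 0.22, with a mean of 0.28 (adjusted p = 0.165). All 4 values were above 0, but neither group was called. In the remaining groups at most 1 array was left, at -0.26 to 0.22.

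Cdkn1a, the p21 gene, stayed within 0.53 log2 units of the pool on all 29 arrays that measured it, 14 above and 15 below 0. With anisomycin both arrays gave 0.24, and with TNFα 0.24 and 0.11. NaCl gave -0.11 and -0.12 at 45 min, 0.33 and -0.24 at 2 h, and -0.43 and -0.53 at 8 h. The 8 h values were the lowest of all groups and lay below every other array. Their mean of -0.48 (SE 0.16) was 1.39-fold lower than the pool and was called (limma, adjusted p = 0.0367). Without the first array of that group the value was -0.53 (adjusted p = 0.158) and without the second -0.43 (adjusted p = 0.278). The direct contrast of 8 h against 2 h was -0.52 (95% interval -0.98 to -0.05, adjusted p = 0.197) and was not called. With SB203580 the 8 h arrays gave -0.33 and -0.02, and the difference from NaCl alone was 0.30 (95% interval -0.17 to 0.77, adjusted p = 1.0). In p38α-/- MEFs the first array was the higher one in all 4 groups (0.34 to 0.37), with second arrays at -0.16, -0.05, 0.20 and -0.16.

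Ppm1d had the largest called ratio of the members, and it rose with time in NaCl. As the mean of its probes, the wild type arrays gave 0.33 and 0.28 at 45 min, 0.97 and 0.52 at 2 h, and 1.23 and 1.66 at 8 h. The groups did not overlap. On the second 45 min array the gene rested on probe A_51_P131526 alone, because its other spots were outliers. The first 45 min array used all probes, so the contrasts with 45 min below mix sets of probes. The means were 0.31 at 45 min (limma, adjusted p = 0.187), 0.74 at 2 h (SE 0.15, 1.67-fold, adjusted p = 0.0034) and 1.44 at 8 h (SE 0.15, 2.72-fold, adjusted p = 1.93e-06). Without the first 2 h array the value at 2 h was 0.52 (adjusted p = 0.277), whereas at 8 h no array left out ended the call. The contrasts between times do not use the pool: 8 h was above 45 min by 1.14 (95% interval 0.71 to 1.57, adjusted p = 0.00185), where 7.53% of all genes were called, and above 2 h by 0.70 (0.27 to 1.13, adjusted p = 0.0433), where 7.81% were. The second of these calls was lost without any 1 of 12 arrays, with values of 0.48 to 0.70 and an adjusted p of up to 0.335. The step from 45 min to 2 h was 0.44 (0.00 to 0.87, adjusted p = 0.834). In the time contrasts as a whole 29 member values were tested, and the 3 calls were all of Ppm1d. In the 3 time contrasts without a member called 2.82% of all genes were.

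The 3 Ppm1d probes did not move alike. The pair on the RefSeq transcript, A_52_P26155 and A_51_P131526, gave 1.70 and 1.26, and 1.60 and 0.89, on the 2 arrays with NaCl for 2 h. At 8 h they gave 1.93 and 2.34, and 1.78 and 2.56. With NaCl for 45 min they gave 0.73 and 0.61, the latter an outlier spot, and 0.04 and 0.28. For both probes all 8 h values lay above all 2 h values, but neither was called as a single probe in the direct contrast of these times. With the brightest probe, A_52_P26155, standing for the gene, that contrast was 0.65 (limma, adjusted p = 0.119). As single probes they were 1.48 (adjusted p = 6.73e-05) and 1.24 (adjusted p = 0.00436) at 2 h, where 12.5% of all probes were called, and 2.13 (4.39-fold, adjusted p = 6.5e-07) and 2.17 (4.50-fold, adjusted p = 1.13e-05) at 8 h, where 20.6% were. The third probe, A_52_P521178, was designed on the cDNA AK051509, which no table here ties to a RefSeq gene. It gave -0.40 and -0.59 at 2 h, a mean of -0.50 (adjusted p = 0.0227), and -0.03 and 0.09 at 8 h. Over all 30 arrays the RefSeq probes had a Pearson r of 0.94 with each other and of 0.12 and 0.21 with the third probe. The mean over all 3 probes is therefore lower than what the RefSeq probes gave. The gene's difference between 2 h and 8 h also holds the change of the third probe.

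**Figure D2:**
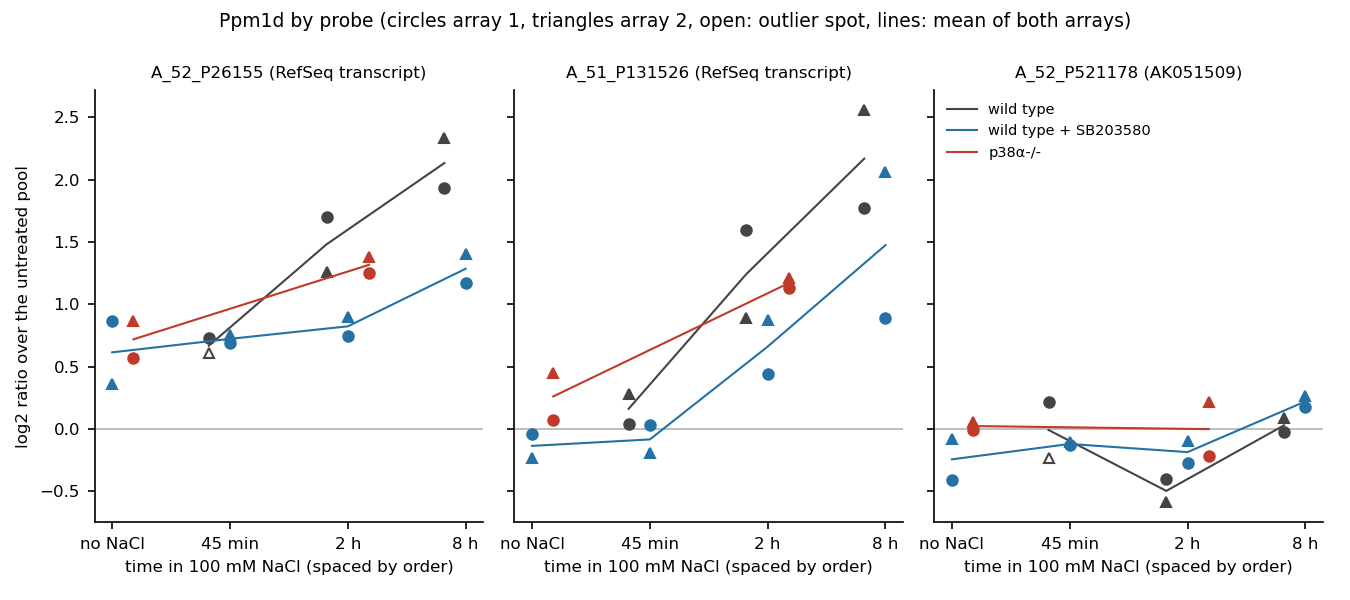
Log2 ratio of the 3 Ppm1d probes (panels) against time in NaCl (x axis, spaced by order) in wild type MEFs without (grey) or with SB203580 (blue) and in p38α-/- MEFs (red), with circles for array 1, triangles for array 2, open symbols for outlier spots and lines for the mean of both arrays. The 2 RefSeq probes reached 1.78 to 2.56 at 8 h in wild type MEFs and 0.89 to 2.06 with SB203580, and the AK051509 probe stayed between -0.59 and 0.27.

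In wild type MEFs Ppm1d was not called as a gene with the other stresses. With anisomycin the gene gave 0.27 and 0.55, a mean of 0.41 (limma, adjusted p = 0.0711, and 0.0312 with a block for the replicate number), and with TNFα -0.20 and -0.00, a mean of -0.10 (adjusted p = 0.721). The AK051509 probe was an outlier spot on the second anisomycin array, so the values 0.27 and 0.55 rest on different sets of probes. Probe A_52_P26155 gave 0.86 and 0.77 with anisomycin, a mean of 0.81 (adjusted p = 0.00692, where 13.4% of all probes were called), while A_51_P131526 gave 0.34 and 0.33. The AK051509 probe gave -0.62 and -0.37 with TNFα, a mean of -0.49 (adjusted p = 0.0227, where 13.2% of all probes were called). A_52_P26155 was above 0 on all 30 arrays (0.20 to 2.34), also in groups without stress, at 0.87 and 0.36 with SB203580 alone (mean 0.62, adjusted p = 0.0162, where 29.6% of all probes were called) and at 0.57 and 0.87 in untreated p38α-/- MEFs. A_51_P131526 gave -0.04 and -0.23 with SB203580 alone. How much of the level of A_52_P26155 is an offset of the probe against the pool was not tested.

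With SB203580, Ppm1d was still higher than the pool in NaCl at 2 h and 8 h. The gene gave 0.20 and 0.15 at 45 min, 0.31 and 0.56 at 2 h, and 0.74 and 1.24 at 8 h. Its mean of 0.43 at 2 h was called (limma, adjusted p = 0.0486), a call lost without any 1 of 22 arrays, and its mean of 0.99 at 8 h was called (1.99-fold, adjusted p = 0.000124) whichever array was left out. Against SB203580 alone, NaCl for 8 h was higher by 0.92 (95% interval 0.48 to 1.35, adjusted p = 0.00895, where 7.78% of all genes were called). That call was lost without the first array with SB203580 alone (0.98, adjusted p = 0.0552) or the second 8 h array (0.67, adjusted p = 0.143). It was the 1 call among 15 member values tested against SB203580 alone. The other 4 contrasts of this kind called no member and 0.773% of all genes. Within the inhibitor series, 8 h was above 45 min by 0.82 (0.39 to 1.25, adjusted p = 0.0205, where 6.55% of all genes were called), and without the second 8 h array the difference was 0.57 (adjusted p = 0.246). The call was also lost without either 45 min array (adjusted p = 0.074 and 0.135).

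The direct comparison of SB203580 with stress against stress alone called no member in 25 tests by limma (1 at an unadjusted p under 0.05), where 0.0465% of all gene tests were called. The unadjusted one was Ppm1d with NaCl for 8 h, at 0.74 and 1.24 with the inhibitor and 1.23 and 1.66 without, values that overlapped at 1.24 and 1.23. The difference was -0.45 (95% interval -0.88 to -0.02, adjusted p = 0.939). At 2 h it was -0.31 (-0.74 to 0.12, adjusted p = 1.0), with 0.31 and 0.56 against 0.97 and 0.52. On the single RefSeq probes the 8 h difference was -0.85 (A_52_P26155, adjusted p = 0.391) and -0.69 (A_51_P131526, adjusted p = 1.0). For A_52_P26155 the arrays with the inhibitor (1.17 and 1.40) lay below those without (1.93 and 2.34), and for A_51_P131526 (0.89 and 2.06 against 1.78 and 2.56) the groups overlapped.

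A further contrast took off the unstressed arm: the response over SB203580 alone minus the response of wild type MEFs over the pool. For Ppm1d it was -0.39 at 2 h (95% interval -0.92 to 0.14, adjusted p = 0.424) and -0.53 at 8 h (-1.06 to 0.00, adjusted p = 0.316). No member was called among 30 such differences of response, with SB203580 or the knock out, by limma (3 at an unadjusted p under 0.05), and 0.536% of all gene tests were. As a single probe A_52_P26155 was called, with -1.27 at 2 h (adjusted p = 0.0384, where 2.45% of all probes were called) and -1.46 at 8 h (adjusted p = 0.0419, where 0.584% were). These calls were lost without any 1 of 12 arrays at 2 h and of 18 at 8 h, with adjusted p up to 0.332 and 0.376. The other RefSeq probe gave -0.45 (adjusted p = 0.603) and -0.56 (adjusted p = 0.565), and the AK051509 probe 0.55 and 0.43. The SB203580 arm enters this contrast with the 0.87 and 0.36 that A_52_P26155 gave without stress. The wild type arm has no unstressed array, so an offset of the probe against the pool stays in this contrast. How large that offset is was not tested.

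In p38α-/- MEFs Ppm1d also was higher than the pool with NaCl. The arrays gave 0.21 and 0.46 untreated, 0.21 and 0.73 with anisomycin, -0.03 and 0.21 with TNFα and 0.72 and 0.94 with NaCl for 2 h. The NaCl arrays lay above all untreated ones. Against the pool the mean with NaCl was 0.83 (1.78-fold, limma, adjusted p = 0.000845), and 0.72 without its second array (adjusted p = 0.0532). With anisomycin it was 0.47 (adjusted p = 0.042), 0.73 without its first array (adjusted p = 0.0255), 0.21 without its second (adjusted p = 0.698) and not called in a fit on p38α-/- arrays alone (adjusted p = 0.148). Leaving out either array of wild type MEFs with SB203580 and anisomycin also ended that call (adjusted p = 0.0507). Untreated p38α-/- MEFs gave a mean of 0.33 (adjusted p = 0.132).

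Against untreated p38α-/- MEFs, NaCl was higher by 0.49 (95% interval 0.06 to 0.93, adjusted p = 0.376), which was not called. This was the 1 unadjusted p under 0.05 among 16 member values tested within p38α-/- MEFs, none of which was called by limma, and 0.422% of all gene tests were. Against wild type MEFs with the same NaCl treatment, Ppm1d differed by 0.09 (95% interval -0.35 to 0.52, adjusted p = 0.913). The knock out arrays (0.72 and 0.94) lay between the 2 wild type arrays (0.52 and 0.97), and the sign of this difference turned under several settings. The RefSeq probes gave 1.25 and 1.38, and 1.13 and 1.21, with single-probe means of 1.32 (adjusted p = 0.000124) and 1.17 (adjusted p = 0.00413), where 19.9% of all probes were called.

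Mdm2, the ubiquitin ligase of p53, was not called as a gene in any group, and its 2 probes gave opposite signs. Both lie on the RefSeq transcript. A_52_P469842 was above 0 on all 30 arrays (0.10 to 1.13, median 0.52), and A_51_P201346 was below 0 on 29 of 30 (-0.69 to 0.02, median -0.26). The second lay under the first on every array, by 0.23 to 1.35, and their Pearson r over the arrays was 0.12. With anisomycin A_52_P469842 gave 1.13 and 0.69, a mean of 0.91 (1.88-fold, adjusted p = 0.0064), and A_51_P201346 -0.13 and -0.28. Without the first of these arrays the former was 0.69 (adjusted p = 0.256). With TNFα A_52_P469842 gave 0.72 and 0.58, a mean of 0.65 (adjusted p = 0.0375), which was not called without either array (adjusted p = 0.317 and 0.20). Since this probe was also at 0.88 and 0.13 with SB203580 alone and at 0.93 and 0.13 in untreated p38α-/- MEFs, its stressed arrays overlap with the unstressed ones. As a gene, Mdm2 had means between 0.04 and 0.49 in the 15 groups. The difference of its NaCl response between p38α-/- and wild type MEFs was -0.89 (95% interval -1.61 to -0.18, adjusted p = 0.281), with 0.16 and -0.07 against 0.93 and -0.04 in one and 0.85 and 0.13 in the other. In that difference the arrays rest on different probes, because A_51_P201346 was an outlier spot on the first untreated p38α-/- array and the first wild type NaCl array.

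**Figure D3:**
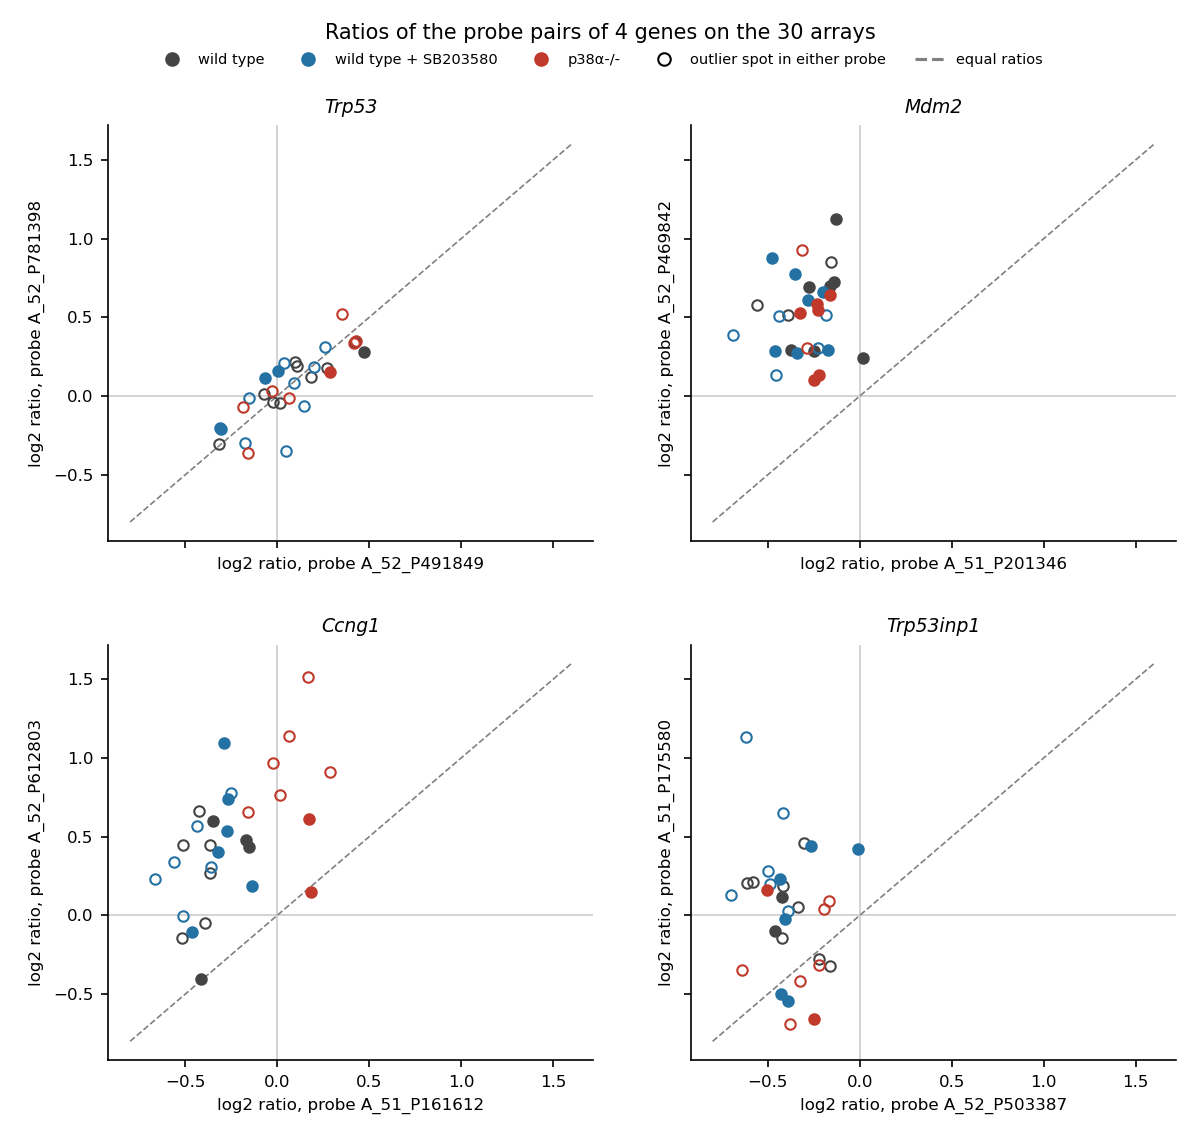
Log2 ratio of one probe (x axis) against the other (y axis) of Trp53, Mdm2, Ccng1 and Trp53inp1 on the 30 arrays, in wild type MEFs without (grey) or with SB203580 (blue) and p38α-/- MEFs (red), with open symbols where either spot was an outlier and a dashed line for equal ratios. The Trp53 probes follow the line, all Mdm2 points lie above it, and Ccng1 and Trp53inp1 lie above it on 29 and 22 of the 30 arrays.

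Ccng1, which encodes cyclin G1, was higher than the pool in p38α-/- MEFs with and without stress. These values rested mostly on its probe A_52_P612803. The arrays gave 1.51 and 0.77 untreated, 0.91 and 0.39 with anisomycin, 0.97 and 0.65 with TNFα, and 1.14 and 0.17 with NaCl. The second array was the lower one in all 4 groups, and the values overlapped with wild type arrays (-0.41 to 0.78). The means were 1.14 (2.20-fold, limma, adjusted p = 0.0011), 0.65 (adjusted p = 0.0397), 0.81 (adjusted p = 0.0181) and 0.65 (adjusted p = 0.0298). Without the first array of the group they were 0.77 (adjusted p = 0.158), 0.39 (adjusted p = 0.435), 0.65 (adjusted p = 0.426) and 0.17 (adjusted p = 0.75). Without the second array the call held untreated and with NaCl (1.14, adjusted p = 0.00958), and not with anisomycin (0.91, adjusted p = 0.0885) or TNFα (0.97, adjusted p = 0.0688). Fits on p38α-/- arrays alone ended all 4 calls, with adjusted p of 0.0706 untreated, 0.236 with anisomycin, 0.214 with TNFα and 0.197 with NaCl. Normexp background correction ended the calls with anisomycin (0.61, adjusted p = 0.0559) and NaCl (0.60, adjusted p = 0.0535). With outlier spots kept, Ccng1 was 0.62 untreated (adjusted p = 0.0027), 0.36 with TNFα (adjusted p = 0.0886, not called) and 0.38 with NaCl (adjusted p = 0.0444), and the deposited log2 values gave 0.71, 0.41 and 0.40, all called.

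The Ccng1 probes differed in level of ratio. A_52_P612803, designed on the cDNA Z37110, which was not tied to a RefSeq gene here, ran from -0.40 to 1.51 over all 30 arrays. A_51_P161612 on the RefSeq transcript ran from -0.66 to 0.29 with 18 outlier spots. In p38α-/- MEFs, outlier spots included, A_51_P161612 gave 0.17 and 0.02 untreated and 0.29 and 0.17 with anisomycin. It gave -0.02 and -0.16 with TNFα and 0.07 and 0.18 with NaCl, where wild type MEFs gave -0.17 and -0.39. A_52_P612803 lay above A_51_P161612 on 29 arrays (Pearson r 0.57). In p38α-/- MEFs the gene rested on A_52_P612803 alone on 6 of 8 arrays, because the other spot was an outlier, whereas the first wild type arrays mostly held both. On A_52_P612803 alone, p38α-/- MEFs with NaCl gave 1.14 and 0.15 and wild type MEFs 0.48 and -0.05. SB203580 alone gave 1.1 and 0.57 on this probe, a mean of 0.83 (adjusted p = 0.00819), and 0.57 without its first array (adjusted p = 0.347).

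For Ccng1 the comparison with wild type MEFs moved when the scan day entered the fit. With NaCl for 2 h the difference of p38α-/- from wild type MEFs was 0.60 (95% interval 0.01 to 1.19, limma, adjusted p = 0.428). With the scan day as a block, an analysis added after the data were seen, it was 0.95 (adjusted p = 0.0287), where 1.28% of all genes were called, and the 2 arrays scanned on the shared day differed by 1.19. Both of those arrays rest on A_52_P612803 alone, whereas the first wild type NaCl array held both probes. Scan day and set of probes therefore cannot be told apart here. With anisomycin and TNFα the arrays of the shared day differed by 0.64 and 0.52. The scan day block gave 0.54 (adjusted p = 0.237) and 0.66 (adjusted p = 0.234) for these stresses, neither of them called. The p38α-/- response to anisomycin minus the wild type one was -0.95 (adjusted p = 0.197, and 0.0369 with a block for the replicate number). The block also gave calls for Ccng1 in wild type MEFs with anisomycin (0.47, adjusted p = 0.0227 against 0.133 without it), SB203580 alone (0.49, 0.0114 against 0.0801) and SB203580 with TNFα (0.54, 0.0141 against 0.0936). It called NaCl for 8 h with SB203580 against SB203580 alone as well (-0.63, 0.0425 against 0.215). In wild type MEFs with NaCl, Ccng1 gave 0.14 and 0.44 at 45 min, 0.16 and -0.05 at 2 h, and -0.41 and -0.14 at 8 h. The 8 h arrays lay below the others, with a difference from 45 min of -0.57 (95% interval -1.16 to 0.03, adjusted p = 0.298), which was not called.

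Trp53inp1 was not called as a gene in any group, and its 2 RefSeq probes had a Pearson r of -0.21 over the arrays. A_52_P503387 was below 0 on all 30 arrays (-0.70 to -0.01), 19 of them outlier spots. A_51_P175580 ran from -0.69 to 1.13. On this probe NaCl for 2 h gave -0.69 and -0.66 in p38α-/- MEFs, a mean of -0.67 (adjusted p = 0.00179), and -0.50 and -0.54 with SB203580, a mean of -0.52 (adjusted p = 0.00913, where 20.2% of all probes were called). Wild type MEFs gave -0.14 and -0.28 at that time, above both of these groups, but neither direct contrast with them was called on this probe. At 8 h with SB203580 the probe gave 0.42 and 0.44, a mean of 0.43 (adjusted p = 0.0219, where 21% of all probes were called), against -0.32 and 0.05 without the inhibitor. The direct contrast of these 8 h groups was not called on this probe either. In the inhibitor series 8 h was above 2 h by 0.95 (adjusted p = 0.00354, where 7.22% of all probes were called). The ratios at 2 h and 8 h with SB203580 were not called without either of their arrays (adjusted p from 0.0892 to 0.18), whereas the p38α-/- value and the difference between the times kept their calls.

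The highest Trp53inp1 values were with SB203580 alone, at 1.13 on the first array and 0.65 on an outlier spot of the second. The mean of both spots was 0.89, and since the second was left out the group was not tested on this probe. The gene as the mean of both probes gave -0.57 in p38α-/- MEFs with NaCl (adjusted p = 0.0599, and 0.0158 with a block for the replicate number). With SB203580 and NaCl for 2 h it gave -0.46 (adjusted p = 0.125, and 0.0417 with the block).

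Perp, the junction protein, was lower in p38α-/- MEFs than in the pool in the 3 groups that could be tested, stressed or not. Its probe gave -0.84 and -0.80 untreated, -0.78 and -1.07 with anisomycin, and -0.54 and -1.04 with NaCl. With TNFα it gave -0.77 on the first array and -0.60 on an outlier spot. The 12 wild type arrays used ran from -0.12 to 0.21 and did not overlap with these. Among outlier spots, 1 wild type spot reached -0.56, with NaCl for 45 min and SB203580, and overlapped with the p38α-/- values. The means were -0.82 (1.76-fold lower, limma, adjusted p = 0.00401), -0.93 (1.90-fold lower, adjusted p = 0.00248) and -0.79 (1.73-fold lower, adjusted p = 0.00373). Without 1 array each was still under -0.5, but not called without the first untreated array (-0.80, adjusted p = 0.101), the second anisomycin array (-0.78, adjusted p = 0.0684) or the second NaCl array (-0.54, adjusted p = 0.0882). Fits on p38α-/- arrays alone gave adjusted p of 0.0513 untreated and 0.0503 with anisomycin.

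Stress did not move Perp within p38α-/- MEFs by a called amount, with differences from untreated of -0.11 with anisomycin (95% interval -0.53 to 0.31) and 0.03 with NaCl (-0.39 to 0.45). The genotypes could be compared directly with NaCl for 2 h, where wild type MEFs gave 0.19 and 0.04. The difference was -0.90 (95% interval -1.32 to -0.48, 1.87-fold lower, adjusted p = 0.0828), which missed the threshold. It was called with normexp (-0.70, adjusted p = 0.0465), in the deposited log2 table (-0.90, adjusted p = 0.0203), with outlier spots kept (adjusted p = 0.0463) and with a block for the replicate number (adjusted p = 0.0402). With the scan day as a block the difference was -0.80 (adjusted p = 0.125), and the 2 arrays of the shared scan day differed by -0.58. Without the first p38α-/- array it was -1.15 (adjusted p = 0.0287). Among the 15 member values tested between the genotypes none was called by limma (2 at an unadjusted p under 0.05, Perp and Ccng1), where 0.8% of all gene tests were called. The untreated p38α-/- MEFs had no wild type array to be compared with other than the pool.

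**Figure D4:**
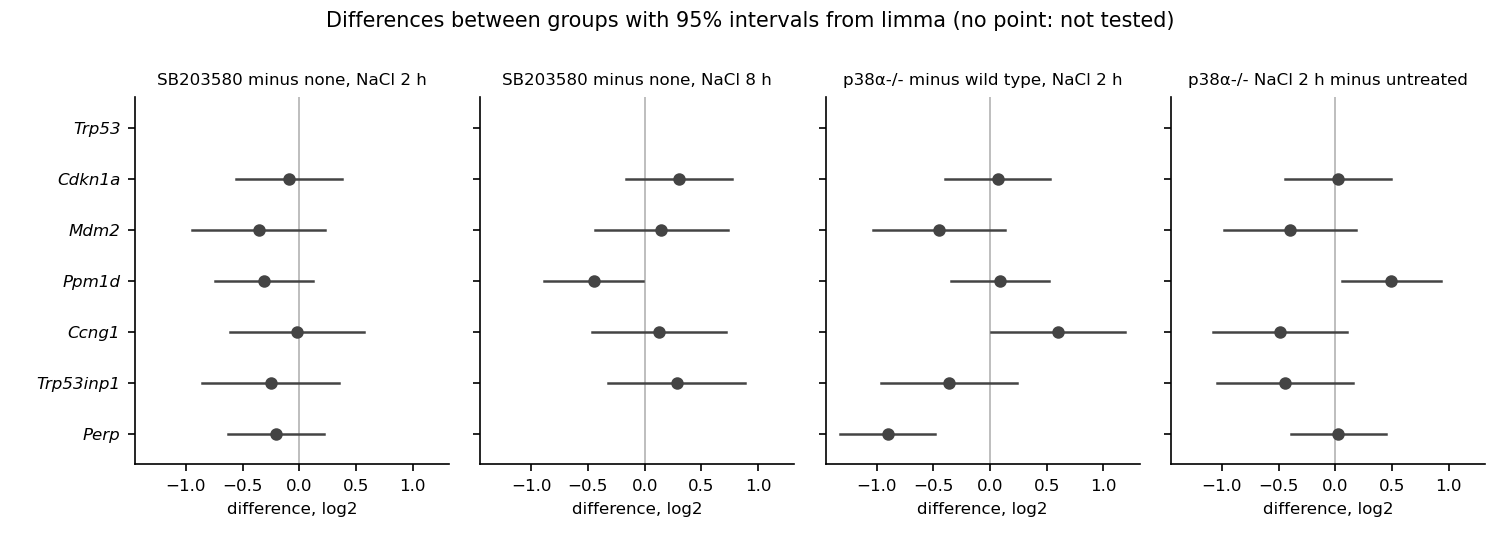
Difference in log2 ratio (x axis) with its 95% interval from limma for each member (y axis), for SB203580 with NaCl minus NaCl alone at 2 h and 8 h and for p38α-/- minus wild type MEFs and NaCl minus untreated p38α-/- MEFs at 2 h. Of the intervals, 4 lie off 0, those of Ppm1d with SB203580 at 8 h (-0.88 to -0.02), of Ccng1 (0.01 to 1.19) and Perp (-1.32 to -0.48) between genotypes and of Ppm1d within p38α-/- MEFs (0.06 to 0.93), and after adjustment none of the differences shown was called.

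Other targets of p53 moved in both directions. From a list of 44 targets, of which 43 were on the array, 7 of 30 tested rose and 2 fell with anisomycin (12.0% of all genes called), 8 of 30 rose and 3 fell with TNFα (11.0%), and 3 of 27 rose and 2 fell with NaCl for 45 min (9.88%). With NaCl for 2 h it was 2 up and 2 down of 38 (9.92%), and for 8 h 5 up and 6 down of 33 (22.2%). The list's median ratio lay between -0.12 and 0.05 in these 5 groups, beside medians over all genes of 0.00 to 0.01. With SB203580 the 8 h group had 3 up and 9 down of 36 (21.2%), and the p38α-/- MEFs with NaCl 3 up and 4 down of 37 (18.0%).

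Among the members of that list with at least a 2-fold change was Btg2, an inhibitor of proliferation that is also an immediate early gene, at 4.35 and 5.26 with anisomycin (mean 4.80, limma, adjusted p = 4.03e-09) and 1.58 and 3.35 with TNFα (mean 2.47, adjusted p = 1.85e-05). Pmaip1 (Noxa), a protein that promotes apoptosis, had a mean of 1.84 with TNFα, of 1.60 with anisomycin and of 1.23 with NaCl for 2 h. Without stress its mean was 0.96 with SB203580 alone and -0.24 in untreated p38α-/- MEFs. The kinase gene Plk3 had means of 2.53 with anisomycin and 1.08 with TNFα, and Ddb2, which recognises damaged DNA, fell by 1.28 with NaCl for 8 h. With anisomycin Btg2 was lower with SB203580 than without (difference -3.26, adjusted p = 0.00114), and lower in p38α-/- than in wild type MEFs (difference -2.54, adjusted p = 0.00184). Pmaip1 was lower in p38α-/- than in wild type MEFs with anisomycin (-1.66, adjusted p = 0.022) and with TNFα (-1.77, adjusted p = 0.0276).

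Regulators of p53 (27 of 28 on the array) had 1 up and 3 down of 20 with anisomycin (12.0% of all genes called), none up and 3 down of 20 with TNFα (11.0%), none up and 2 down of 19 with NaCl for 45 min (9.88%) and 1 up and none down of 24 with NaCl for 2 h (9.92%). At 8 h of NaCl, where 22.2% of all genes were called, 3 of 23 rose, among them Npm1 (nucleophosmin, mean 1.25), and 5 fell, among them Ppp1r13b (a binding partner that directs p53 to apoptosis genes, -0.74 and -2.00, mean -1.37). Ppp1r13b was also called lower with TNFα (mean -1.27), and lay below the pool on every array that measured it. Without stress it gave -1.55 and -1.51 with SB203580 alone and -0.58 on an untreated p38α-/- array. Npm1 lay above the pool on every array that measured it. Without stress Npm1 gave 0.91 with SB203580 alone and 0.49 in untreated p38α-/- MEFs, on a single array each. Among 16 partners of p21, 4 of 14 rose with NaCl for 2 h (9.92% of all genes called), among them Pcna (the replication clamp, mean 1.01). Without stress, Pcna gave 1.15 with SB203580 alone and 0.27 in untreated p38α-/- MEFs, on a single array each. At 8 h (22.2%) 1 of 12 partners rose, Ccnd1 (cyclin D1, mean 1.17), and 2 fell, among them Rbl1 (p107, mean -1.09). Of 15 relatives of the members, such as other phosphatases of the Ppm1 family and other inhibitors of cyclin-dependent kinases, 1 of 14 rose with NaCl for 2 h (9.92%) and 1 rose and 1 fell of 11 at 8 h (22.2%).

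The genes whose ratios ran most like those of the members called in wild type stress groups were taken over the arrays that measured both. For Ppm1d, of 16259 genes, these were 3300001P08Rik (Pearson r 0.89, 28 arrays), Upf2 (0.85, 30 arrays) and Rab25 (0.85, 28 arrays). For Cdkn1a, of 16033 genes, they were Cdc42ep3 (0.79, 25 arrays), 2810423A18Rik (0.77, 29 arrays) and Homer1 (0.76, 29 arrays). All arrays share the pool and the scan days, and these are the highest of many r, so they are given as a description.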

How the data were processed

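RNA was amplified in 2 rounds, labelled and hybridised by the authors on Agilent arrays, with pooled RNA of 2 untreated wild type cultures in Cy3 and each treated culture in Cy5. The deposited log10 ratios and processed intensities came from Agilent Feature Extraction (9.1 per the submitters' processing notes, with an earlier version in the headers), which subtracted background and normalized the dyes. The deposited log2 table of the authors, centred near 0 within each array, with its normalization unstated, served as an alternative.

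Here the log ratios were multiplied to log2 and outlier spots left out. Probes of one name were averaged, first over spots and then over probes. The 15 group means of 30 arrays were fitted with limma 3.58.1 in R 4.3.3 (15 residual degrees of freedom), separately for genes and for single probes, and a value was tested where all arrays of the groups involved measured it. Calls were made at a Benjamini-Hochberg adjusted p under 0.05, over all genes or all probes. Both arrays of a group came from independent experiments per the study's methods, and 2 arrays per group limit the precision.

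Same-numbered arrays of a genotype moved together. Within a genotype the first and second arrays were also scanned on different days, so paired cultures and scan day cannot be told apart. The main fit did not include the replicate number. The deviations of same-numbered arrays from their group means correlated in all 55 pairs of wild type groups (0.13 to 0.65) and all 6 pairs of p38α-/- groups (0.15 to 0.45), but over 0.1 in 6 of 44 pairs across genotypes. The fit was tested on simulated data with known answers.

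The members and gene lists were chosen with earlier results of these data known. Named were all members and their probes, the listed genes called with at least a 2-fold change in a wild type stress group (at most 6 per group), and the 3 genes most like each member called there (over at least 24 arrays). A listed gene that met this rule is not reported here. RefSeq symbols were found for 15887 of 16836 RefSeq accessions of the probes. Alternatives tried were loess after normexp (offset 50), the deposited log2 table, the brightest probe, outlier spots kept, dim spots left out, a block for the replicate number, fits within a genotype and each array left out. Single probes and the scan day as a block were added after the data were seen. Single probes were also fitted with outlier spots kept, with the replicate block, with both and with each array left out. The other alternatives were not run on single probes.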

Additional observations from a re-analysis of the deposited data

Results flagged for a closer look

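For the Ppm1d probe A_52_P26155, the response to NaCl over SB203580 alone was smaller than the response of wild type MEFs over the pool. The difference was -1.27 at 2 h (limma, adjusted p = 0.0384) and -1.46 at 8 h (adjusted p = 0.0419). The wild type arm has no unstressed array, so an offset of the probe against the pool stays in this difference. The probe was above 0 on all 30 arrays, and its offset was not tested. This test of the difference itself singled the probe out, but the other RefSeq probe of Ppm1d was not called, and the calls were lost without any 1 of 12 arrays (2 h) or 18 arrays (8 h).

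For Perp with NaCl for 2 h, both wild type arrays lay above the pool and both arrays with SB203580 below it, at a difference of -0.20 (adjusted p = 1.0 by limma). Both p38α-/- arrays also lay below the pool, at a difference from wild type MEFs of -0.90 (adjusted p = 0.0828 by limma). The opposite signs against the pool drew attention to this gene, neither of the direct tests called the difference, and 4 alternatives called that between genotypes.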

How the results depend on the processing

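Over the alternatives to the 24 member results followed as genes, 804 of 883 values kept direction and call, 68 lost the call, 6 gained one and 5 changed sign, and for 39 single-probe results 104 of 1287 values lost the call. Both totals include the fits with each of the 30 arrays left out. Leaving out an array of a group outside the contrast does not move the value, so these totals do not measure how firm a call was. The counts of member calls moved as follows. Against the pool, 14 calls became 23 with the deposited log2 table, and single probes, where a member counts once in a group if any of its probes was called, gave 28 (33 of 112 probe tests), 54 with outlier spots kept, 39 with the replicate block and 62 with both. For NaCl or other stress with SB203580 against SB203580 alone, 1 call became 3 with the deposited table, 0 with the brightest probe, 2 with outlier spots kept and 2 with the replicate block, and single probes gave 2 with outlier spots kept, 2 with the block and 4 with both. Between genotypes, 0 calls became 1 with normexp, 2 with the deposited table, 1 with outlier spots kept, 1 with the replicate block and 1 with the scan day block, and single probes gave 1 with outlier spots kept, 1 with the block and 3 with both. For differences of response, 0 became 1 with the deposited table, 2 with the brightest probe and 1 with the replicate block, and single probes gave 2, 5 with outlier spots kept, 2 with the block and 13 with both. In the time course, 3 calls became 1 with the brightest probe, and single probes gave 5 with outlier spots kept and the block. With each array left out, the counts ran from 11 to 15 against the pool, 0 to 2 against SB203580 alone, 0 to 1 between genotypes, 0 to 1 for differences of response and 1 to 3 in the time course. For SB203580 with stress against stress alone and within p38α-/- MEFs the count was 0 under every setting run. The difference of Ppm1d between genotypes with NaCl for 2 h (0.09) turned to -0.025 with normexp, -0.16 with the brightest probe and -0.11 with the scan day block, and ran from -0.14 to 0.31 with arrays left out. The shares of all genes and probes called under each of these settings are not given beside the counts. A higher count is therefore not a result about the members. The cause of these moves was not tested. The replicate block changed no other member call than those given with the results, and a fit on 1 genotype was not run between genotypes. Every member probe was above background on all 30 arrays, and 2 arrays a group limit the precision.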
